A study of Mus musculus with 12 samples.

Results

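Nuclear-encoded genes of the mitochondrial respiratory chain were followed in whole mouse kidneys with and without the clock transcription factor BMAL1 in the renal tubule. The genes were chosen by name: every protein-coding gene whose symbol begins with Nduf, Uqcr, Cox4, Cox5, Cox6, Cox7, Cox8 or Atp5, together with Sdha, Sdhb, Sdhc, Sdhd and Cyc1, with a mean of at least 1 CPM, a gene's count scaled to the library's total, over 12 libraries. Of 38924 gene IDs in the files, 105 carried such a symbol, 94 of these were protein coding and 88 reached that level. All 88 passed the filter on low counts and were among the 16150 genes tested. Of the 88 genes, 36 encode subunits of complex I, 4 of complex II, 9 of complex III, 15 of complex IV and 15 of complex V, and 9 encode assembly factors that the naming rule took in, namely Ndufaf1 to Ndufaf8 and Atp5s (factor B of the ATP synthase). Ndufa4 and Ndufa4l2 were counted with complex IV, where the NDUFA4 protein is known to reside.

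The respiratory chain sits in the inner mitochondrial membrane. Complex I takes electrons from NADH and complex II from succinate, complex III passes them on to cytochrome c, and complex IV hands them to oxygen, while complex V uses the proton gradient so formed to make ATP. Tubule cells of the kidney, above all those of the proximal tubule, reabsorb most of the filtrate by active transport and are among the cells richest in mitochondria. All subunits of complex II and most of the others are encoded in the nucleus, and a small set of core subunits is encoded in mitochondrial DNA.

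RNA was sequenced from 4 groups of 3 whole-kidney libraries on a C57BL/6J background: wild-type littermates (WT) and mice with a tubular deletion of Arntl, the gene of BMAL1 (KO), each at ZT4 in the light and at ZT16 in the dark of a 12-hour light and 12-hour dark cycle, with ZT0 at lights on. The KO mice were Bmal1lox/lox/Pax8-rtTA/LC1 animals whose drinking water held doxycycline (2 mg/ml) over a span of 2 weeks, begun at an age of 8 weeks. In this system the Pax8 promoter drives a doxycycline-dependent activator in tubule cells, which turns on the LC1 Cre transgene, so cells outside the Pax8 lineage keep the gene and are part of every whole-kidney library. The labels do not state whether the littermates drank doxycycline, the age at sampling, the sex of the mice or whether each library came from its own mouse. The p-values therefore cover the spread among the libraries as sequenced. In whole-tissue RNA, fewer cells of a type and less RNA per cell cannot be told apart.

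Between 25628887 and 38043491 counts per library fell in genes. KO ZT16 replicate 2 stood apart. The chi-square of its counts per degree of freedom was 191 against replicate 4 and 169 against replicate 6 of its own group, where replicates 4 and 6 gave 4.71 between them and pairs in the other groups gave 5.58 to 45.2. On clock genes this library lay on the KO side: Nr1d2, the gene of REV-ERBβ, was at 33.6 CPM in it, at 21 to 27 CPM in the other 5 KO libraries and at 94.2 to 117 CPM in the 6 WT libraries. Npas2, a BMAL1 partner, was at 24.7 CPM in it, at 36.8 to 45.3 CPM in the other KO libraries and at 2.57 to 11 CPM in WT. Counts of called members and their median changes are therefore given with and without this library. For some single genes the KO to WT change at ZT16 is given only without it. With all libraries edgeR called 0 of the 88 members at ZT16. Whole-gene counts of Arntl, 8.63 to 20 CPM in WT and 12.3 to 16.2 CPM in KO, did not check the labels, because the exons removed are not given and non-tubular cells keep the gene.

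The sequences below show the start regions of 5 members on which the results turn: Ndufaf4, which averaged over both times was called lower in KO under all 19 alternatives tried, Ndufa10, which was also called lower in that comparison, Sdha and Ndufv1, which changed little at ZT16, and Cox7b, whose highest library stood furthest above its lowest among the 88 members. They come from RefSeq windows on GRCm38.p6, are written 5′ to 3′ on the strand of the gene, end where the outermost annotated start begins, and carry in capitals any match to 6 motifs. The stretches are chr4:24897883-24898082 on the plus strand (200 bases), chr1:92473861-92474008 on the minus strand (148 bases), chr13:74350281-74350480 on the minus strand (200 bases), chr19:4012807-4013005 on the minus strand (199 bases) and chrX:106015500-106015699 on the plus strand (200 bases).
Ndufaf4: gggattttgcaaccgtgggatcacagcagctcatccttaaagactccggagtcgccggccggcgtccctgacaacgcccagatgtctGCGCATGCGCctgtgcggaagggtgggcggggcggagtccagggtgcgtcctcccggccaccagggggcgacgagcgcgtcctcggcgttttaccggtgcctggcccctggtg
Ndufa10: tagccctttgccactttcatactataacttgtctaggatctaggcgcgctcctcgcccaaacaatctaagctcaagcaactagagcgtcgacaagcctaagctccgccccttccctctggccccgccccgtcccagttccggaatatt
Sdha: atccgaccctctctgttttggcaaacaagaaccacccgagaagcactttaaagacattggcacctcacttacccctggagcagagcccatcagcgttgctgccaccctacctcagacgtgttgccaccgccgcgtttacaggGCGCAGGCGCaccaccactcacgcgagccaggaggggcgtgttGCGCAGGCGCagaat
Ndufv1: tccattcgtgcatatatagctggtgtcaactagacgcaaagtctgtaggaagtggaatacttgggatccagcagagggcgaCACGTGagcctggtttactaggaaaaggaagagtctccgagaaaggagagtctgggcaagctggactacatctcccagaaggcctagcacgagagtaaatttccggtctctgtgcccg
Cox7b: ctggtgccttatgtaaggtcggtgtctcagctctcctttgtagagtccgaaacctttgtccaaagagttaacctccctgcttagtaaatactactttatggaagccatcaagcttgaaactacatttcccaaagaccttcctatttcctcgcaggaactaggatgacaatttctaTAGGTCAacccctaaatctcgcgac
The capitals mark the NRF1 motif in Ndufaf4 and at 2 places in Sdha, an E-box CACGTG in Ndufv1 and the motif TAGGTCA of ROR and REV-ERB receptors in Cox7b, and the Ndufa10 stretch held none of the 6. Matches after the annotated start are not shown. A match is a description of these letters and does not show binding.

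Windows from 250 bases before to 50 bases after the RefSeq start were at hand for 73 of the 88 members, 78 windows in all, and both strands were searched. NRF1, a known activator of respiratory chain genes, had its motif in 24.4% of the members' windows and in 4.6% of all 32851 windows. For the other known factors of this gene family the ETS motif CCGGAAG (GABP) stood in 23.1% against 8.86%, the YY1 motif AANATGGC in 24.4% against 6.05%, and the motif AAGGTCA of the ERR receptors in 10.3% against 4.72%. The E-box CACGTG, the motif of BMAL1 with CLOCK, stood in 8.97% of the members' windows against 7.15% of all, and TAGGTCA in 3.85% against 2.61%. E-boxes were in windows of 6 members: Atp5f1, Atp5g1, Atp5g3, Atp5l, Ndufa7 and Ndufv1. AAGGTCA and TAGGTCA share all letters but the first, and no single match was counted for both.

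Per kilobase of exon, the levels ranged from 0.429 CPM per kb for Atp5l to 733 for Atp5b, the catalytic beta subunit of the ATP synthase, as means over the 12 libraries. After Atp5b came Cox8a (626), Cox6a1 (574) and Cox6b1 (534), small subunits of complex IV. In complex I, Ndufb9 led with 286 and in complex III Uqcr10 with 450.3 CPM per kb. The assembly factors, which help to build the complexes and are not part of them, stood lower, from 6.51 for Ndufaf5 to 23.8 CPM per kb for Ndufaf1. Exonic length here is the union of all annotated exons, so genes with many isoforms are understated, and reads that aligned to more than 1 place were not counted.

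**Figure D1:**
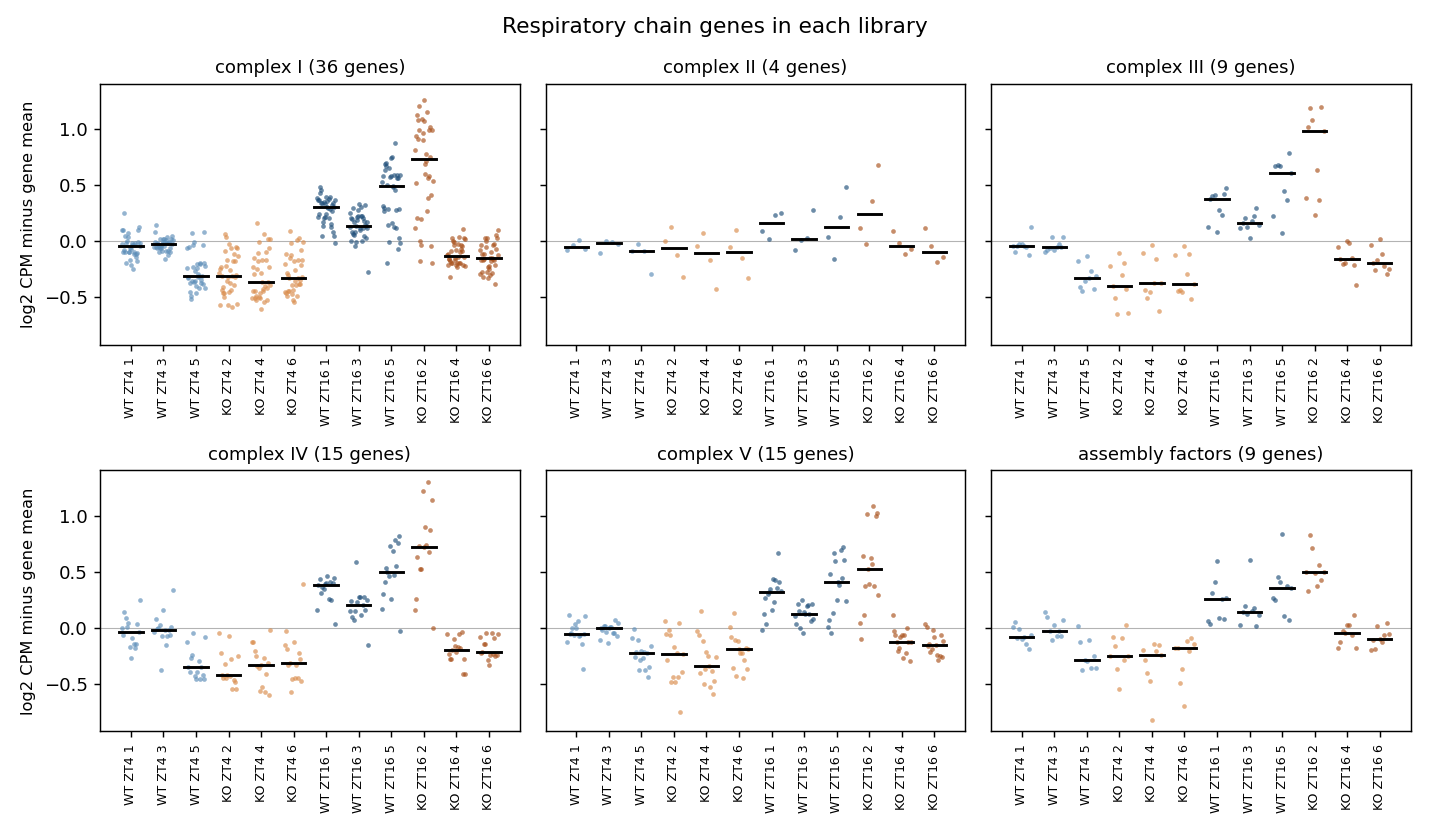
Each point is 1 gene in 1 library, as log2 CPM minus the gene's mean over the 12 libraries (no unit beyond log2), in 6 panels by complex with the libraries along the x axis, and black bars are medians. KO ZT16 replicate 2 holds the highest median in every panel, and KO ZT16 replicates 4 and 6 lie below the 3 WT ZT16 libraries in every panel.

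The summed level of the 88 genes shows the pattern in every library. At ZT4 it was 21146, 20999 and 18522 CPM in WT and 18345, 18054 and 18393 CPM in KO. At ZT16 it was 25303, 23498 and 27753 CPM in WT and 31344, 20171 and 19979 CPM in KO replicates 2, 4 and 6. The WT libraries at ZT16 were all above the WT libraries at ZT4. In KO at ZT16 replicates 4 and 6 were below every WT ZT16 library and replicate 2 was above every other library of the study. KO ZT16 replicate 2 was the highest of the 12 libraries for 68 of the 88 members (77.3%), against 23.6% of all tested genes, and lay a median of 0.73 log2 units above the mean of replicates 4 and 6.

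Other measures of the libraries moved with these levels. The share of gene counts from mitochondrially encoded genes was 16.3% to 18.0% in WT ZT4, 12.6% to 12.8% in KO ZT4, 18.7% to 22.4% in WT ZT16, and 22.3%, 14.1% and 14.03% in KO ZT16 replicates 2, 4 and 6. Alignments to more than 1 place were taken as a share of all counts, rows that name no gene included. This share was 34.1% to 36.5%, 30.8% to 31.3% and 38.8% to 41.8% in the first 3 groups. In KO ZT16 it was 43.0%, 34.0% and 33.3%. The part of these measures in the results below was not tested.

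In KO kidneys the respiratory chain genes were lower than in WT for most members. With all 12 libraries few of these differences passed the edgeR test. Averaged over both times, 78 of the 88 members had a log2 fold change below 0, with a median of -0.15 against 0.01 for all tested genes, and 3 members were called lower and 0 higher at adjusted p under 0.05 (5.31% of all genes were called lower and 6.04% higher). These 3 were the assembly factor Ndufaf4 and the complex I accessory subunits Ndufa10 and Ndufa13. At ZT4 the median was -0.21 and edgeR called 0 members (3.29% of all genes were called), while DESeq2 called 4 lower (3.62% of all genes). At an unadjusted p under 0.05 edgeR had 5 of the 88 members, beside 2955 of all 16150 tested genes. At ZT16 the median was -0.10 and edgeR called 0 members (4.03% of all genes), while DESeq2 called 1 lower (3.05% of all genes). Here 4 members had an unadjusted p under 0.05 with edgeR, beside 2591 of all 16150 tested genes. The calls differed with limma voom and sample weights on the same 12 libraries. That fit called 35 members lower at ZT4, 69 at ZT16 and 74 over both times, and 0 higher. Of all genes it called 29.4%, 34.2% and 48.6% in either direction.

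Without KO ZT16 replicate 2 the counts were very different. At ZT16, 69 members were called lower in KO and 0 higher (16.5% of all genes were called lower and 14.7% higher), with a median log2 fold change of -0.45 against -0.02 for all genes. At ZT4 the median stayed at -0.21 and 12 members were called lower (7.48% of all genes). Averaged over both times 71 were called lower (21.7% of all genes), with a median of -0.31. Replicates 4 and 6 are then the only KO ZT16 libraries, and the spread is estimated from all 4 groups together, these replicates included.

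The library values were also compared without a model. At ZT4 all 3 KO libraries were below all 3 WT libraries for 31 of 88 members, 35.2%, against 18.4% of all tested genes. At ZT16 this held for 4 members, 4.55%, against 7.96% of all genes, and with KO replicate 2 left out for 76 members, 86.4%, against 28.3%. By complex the last count was 30 of 36 in complex I, 2 of 4 in complex II, 9 of 9 in complex III, 14 of 15 in complex IV, 13 of 15 in complex V and 8 of 9 assembly factors.

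**Figure D2:**
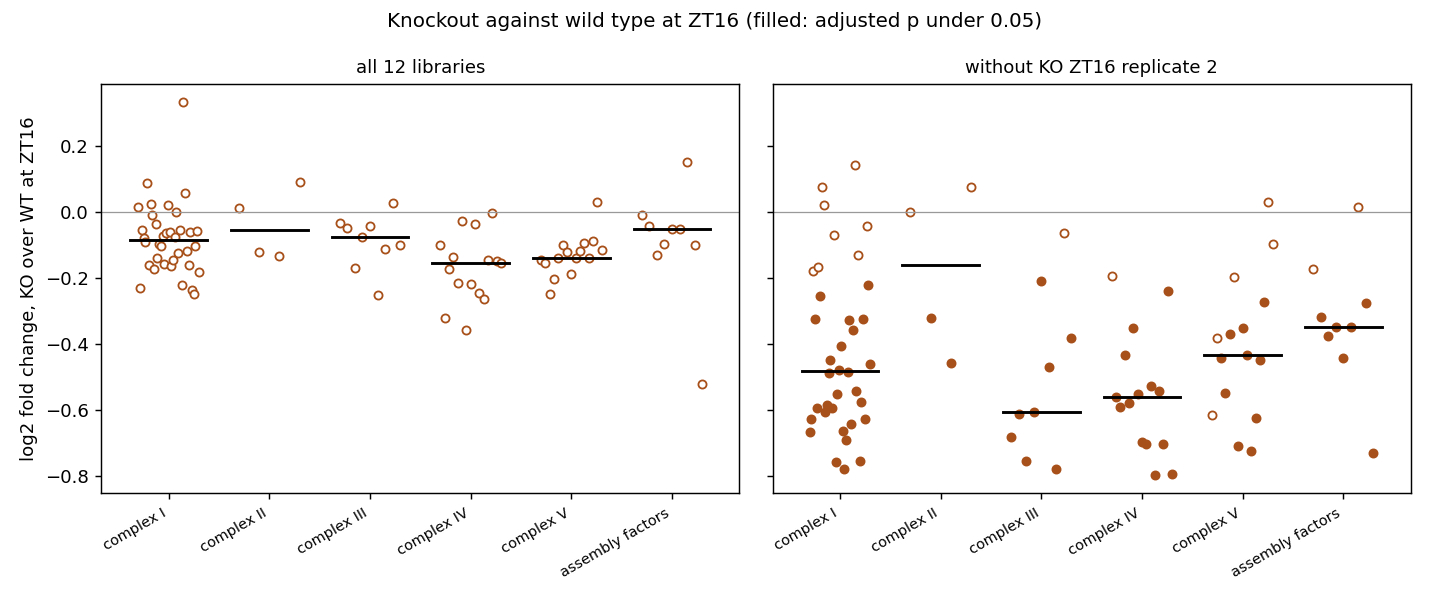
Log2 fold change of KO over WT at ZT16 for each member (points, ordered within a complex by mean CPM) with all 12 libraries at the left and without KO ZT16 replicate 2 at the right; filled points have adjusted p under 0.05 and bars are medians. No point is filled at the left, and 69 of 88 are filled at the right, all below 0.

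Complex I oxidises NADH. Its accessory subunits, which surround the catalytic core, were lower in KO at ZT16 by a median log2 of -0.54 without KO ZT16 replicate 2 (24 of 29 called), and the 7 core subunits by -0.22 (4 called). With all libraries the medians were -0.09 and -0.06, and edgeR called 0.

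Ndufa10, an accessory subunit of the membrane arm (ENSMUSG00000026260, chromosome 1, 92439010 to 92473860, minus strand), was at 308, 304 and 277 CPM in WT and 242, 245 and 249 CPM in KO at ZT4. The ZT16 levels were 334, 313 and 357 CPM in WT and 313, 266 and 273 CPM in KO. The groups did not overlap at either time, with KO ZT16 replicate 2 (313.0 CPM) just below the lowest WT library (313.3 CPM). Averaged over both times Ndufa10 fell by 0.25 on the log2 scale (SE 0.06, adjusted p = 0.0191), and it kept this call in 14 of 19 alternatives. At the single times its changes were -0.27 ± 0.09 (adjusted p = 0.123) and -0.24 ± 0.09 (adjusted p = 0.179).

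Ndufa13 (ENSMUSG00000036199, chromosome 8, 69894180 to 69902558, minus strand), also known as GRIM-19, was at 203, 188 and 164 CPM in WT and 137, 139 and 140.2 CPM in KO at ZT4. At ZT16 it was at 201, 180.3 and 209.6 CPM in WT and 197, 153 and 157 CPM in KO. The groups stood apart at ZT4 and at ZT16 only replicate 2 reached the WT range. Averaged over both times it fell by 0.32 (SE 0.08, adjusted p = 0.0221), a call kept in 10 of 19 alternatives. Of its exonic bases 29.98% overlap Tssk6 on the opposite strand, and since the strand setting of the counting is not given, reads of the overlap cannot be told apart.

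Ndufs1, the largest core subunit and the member of complex I with the most counts, was at 464, 488 and 414 CPM in WT and 383, 359.7 and 378 CPM in KO at ZT4. In the dark, at ZT16, it was at 579, 548 and 655 CPM in WT and 702, 444 and 426 CPM in KO. The WT and KO values did not overlap at ZT4, and at ZT16 replicate 2 was above all WT libraries while replicates 4 and 6 were below them. Its KO to WT change at ZT16 was -0.18 ± 0.16 (adjusted p = 0.634) with all libraries and -0.46 ± 0.09 (adjusted p = 0.00239) without replicate 2. Ndufb9 and Ndufb5, accessory subunits of the membrane arm, were both called lower: without replicate 2 their KO to WT changes at ZT16 were -0.63 ± 0.10 (adjusted p = 0.000822) and -0.76 ± 0.13 (adjusted p = 0.00118).

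Of the 36 members of complex I, 8 were not called at ZT16 without replicate 2. Ndufv1, the core subunit that binds FMN and NADH, was at 306, 322 and 302 CPM in WT and 260.0, 303 and 304 CPM in KO at ZT16, and KO replicate 2 was the lowest of these 6 libraries. At ZT4 Ndufv1 was at 325, 306 and 314 CPM in WT and 285, 285 and 264 CPM in KO, with KO below WT (-0.18 ± 0.08, adjusted p = 0.265). Without KO ZT16 replicate 2 the ZT16 change of Ndufv1 was -0.04 ± 0.07 (adjusted p = 0.666). Ndufs7, Ndufa8, Ndufb10 and Ndufv3 had changes of 0.02, 0.08, -0.07 and 0.14 in the same fit, with adjusted p from 0.264 to 0.844.

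Complex II, succinate dehydrogenase, had soluble subunits with KO values above WT and membrane anchors with KO values below WT at ZT4. Sdha, the flavoprotein that oxidises succinate (ENSMUSG00000021577, chromosome 13, 74322254 to 74350280, minus strand), was at 937, 922 and 930.2 CPM in WT and 991, 963 and 959 CPM in KO at ZT4. The ZT16 levels were 1057, 941 and 1015 CPM in WT and 1077, 1059 and 1076 CPM in KO. All KO values of Sdha were above the WT values of the same time, yet the changes were 0.06 ± 0.07 (ZT4, adjusted p = 0.648) and 0.09 ± 0.07 (ZT16, adjusted p = 0.577). KO ZT16 replicate 2 did not stand out for this gene. Sdhb, the iron-sulfur subunit, was at 200.5, 206 and 202 CPM in WT and 224, 216 and 220.0 CPM in KO at ZT4, with KO above WT (0.12 ± 0.07, adjusted p = 0.379).

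The membrane anchors are Sdhc and Sdhd. Sdhd was at 502, 511 and 591 CPM in WT and 677, 402 and 382 CPM in KO at ZT16. KO replicate 2 was above all 3 WT libraries and the other KO replicates below them. Without replicate 2 Sdhd changed by -0.46 ± 0.09 (adjusted p = 0.00321) and Sdhc by -0.32 ± 0.08 (adjusted p = 0.00651). With all libraries the values were -0.13 ± 0.18 (adjusted p = 0.773) and -0.12 ± 0.12 (adjusted p = 0.694).

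Complex III, the cytochrome bc1 complex, had medians of -0.24 at ZT4 and -0.08 at ZT16 with all libraries, and -0.61 at ZT16 without replicate 2, where 8 of 9 members were called lower. Uqcrc2, a core protein and the member with the most counts, was at 699.7, 698 and 574 CPM in WT and 587, 556 and 588 CPM in KO at ZT4. At ZT16 it was at 874, 820.1 and 988 CPM in WT and 1120, 714 and 669 CPM in KO. KO and WT overlapped at ZT4 through WT replicate 5, and at ZT16 replicate 2 exceeded all WT libraries. Its change at ZT16 was -0.10 ± 0.17 (adjusted p = 0.83) with all libraries and -0.38 ± 0.10 (adjusted p = 0.0114) without replicate 2.

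Uqcrh, the acidic hinge protein between cytochrome c1 and cytochrome c, was at 486, 445 and 626 CPM in WT and 832, 313 and 296 CPM in KO at ZT16. Replicate 2 was far above the WT range, and replicates 4 and 6 lay below it. Without replicate 2 Uqcrh changed by -0.78 ± 0.13 (adjusted p = 0.00122), the most of the 9 members. The Rieske protein gene Uqcrfs1 changed by -0.47 ± 0.08 (adjusted p = 0.0014), Uqcrq by -0.75 ± 0.14 (adjusted p = 0.0021) and Cyc1, the gene of cytochrome c1, by -0.21 ± 0.07 (adjusted p = 0.037). Uqcrc1, the other core protein, had -0.06 ± 0.07 (adjusted p = 0.49) and was the member that was not called.

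Complex IV, cytochrome c oxidase, had summed levels of 3367, 3410 and 2721 CPM in WT and 2647, 2658 and 2746 CPM in KO at ZT4. At ZT16 they were 4463, 3941 and 5291 CPM in WT and 6294, 2984 and 3015 CPM in KO. KO replicate 2 stood above all WT libraries, and the other KO libraries stood below them. Without it edgeR called 14 of 15 members lower in KO at ZT16, with a median of -0.56. With it edgeR called 0 and the median was -0.16.

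Cox8a, a small subunit of the ubiquitous form of the enzyme (ENSMUSG00000035885, chromosome 19, 7215153 to 7217616, minus strand), was at 378, 354 and 275 CPM in WT and 263, 296 and 304 CPM in KO at ZT4. In the dark, at ZT16, it was at 486, 410.5 and 622 CPM in WT and 678, 278 and 309.8 CPM in KO. In WT it was higher in the dark in all 3 libraries, and KO replicates 4 and 6 at ZT16 lay close to the KO libraries at ZT4. Its KO to WT change at ZT16 was -0.26 ± 0.28 (adjusted p = 0.703) with all libraries and -0.80 ± 0.16 (adjusted p = 0.00258) without replicate 2. Ndufa4, the member with the most counts, had -0.15 ± 0.31 (adjusted p = 0.864) and -0.80 ± 0.15 (adjusted p = 0.00219).

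Over the 12 libraries the highest value of Cox7b was 3.68 times its lowest, the largest such ratio of the 88 members, followed by Ndufb4 with 3.58. Cox7b was at 518, 448 and 671 CPM in WT and 960.4, 344 and 331 CPM in KO at ZT16. Its means there, 546 ± 114 and 545 ± 359.7 CPM (SD, n = 3 each), were nearly equal although 2 of the 3 KO libraries lay below all WT libraries. Without replicate 2 the change was -0.70 ± 0.14 (adjusted p = 0.0029).

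Isoforms tied to other tissues stayed low. Cox7a1, the muscle and heart isoform, was at 5.08 to 11.6 CPM, Cox6b2, the testis isoform, at 2.79 to 6.25 CPM, and the hypoxia-linked Ndufa4l2 at 2.77 to 4.83 CPM. The muscle isoforms Cox6a2 and Cox8b, the testis forms Cox7b2 and Cox8c, and Cox4i2 had a mean under 1 CPM and were not members. The complex V gene Atp5g2, which was not chosen as a tissue isoform, also had a mean under 1 CPM and was not a member. Ndufa4l2 was the member of complex IV that was not called at ZT16 without replicate 2 (-0.19 ± 0.20, adjusted p = 0.495). Cox7a2l, which encodes the supercomplex factor SCAF1, was at 90.8, 81.9 and 105 CPM in WT and 126, 72.8 and 73.5 CPM in KO at ZT16. KO replicate 2 was again the highest and the other KO libraries lay below WT, and without replicate 2 its change was -0.35 ± 0.09 (adjusted p = 0.0123).

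Complex V, the ATP synthase, has its catalytic sites on the beta subunit. Atp5b (ENSMUSG00000025393, chromosome 10, 128083273 to 128090391, plus strand) was at 3353, 3094 and 3079 CPM in WT and 2981, 2962 and 2936 CPM in KO at ZT4. The ZT16 levels were 3369, 3167 and 3264 CPM in WT and 2894, 3042 and 3117 CPM in KO. KO was below WT in all libraries at both times, with changes of -0.10 ± 0.08 (ZT4, adjusted p = 0.497) and -0.11 ± 0.08 (ZT16, adjusted p = 0.524), and KO ZT16 replicate 2 was its lowest library. Atp5a1, the alpha subunit, had 0.03 ± 0.07 at ZT16 with all libraries (adjusted p = 0.885) and 0.03 ± 0.07 without replicate 2 (adjusted p = 0.768).

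Of the 15 members of complex V, 10 were called lower in KO at ZT16 without replicate 2, with a complex median of -0.43. With all libraries edgeR called 0, with a median of -0.14. Atp5mpl, a small subunit attached to the membrane part, was at 217, 189.7 and 249 CPM in WT and 334, 133 and 136 CPM in KO at ZT16. Replicate 2 was the highest and replicates 4 and 6 the lowest of these libraries, and the change without replicate 2 was -0.71 ± 0.11 (adjusted p = 0.000596). Atp5j2, the f subunit, changed by -0.73 ± 0.13 (adjusted p = 0.00127) and Atp5f1, the b subunit of the peripheral stalk, by -0.62 ± 0.12 (adjusted p = 0.00233). Atp5d, the delta subunit of the catalytic part, was not called (-0.20 ± 0.09, adjusted p = 0.0949).

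Among the assembly factors Ndufaf4 had the lowest adjusted p of all 88 members for KO against WT averaged over both times. It encodes a protein needed to build complex I (ENSMUSG00000028261, chromosome 4, 24898083 to 24905001, plus strand). It was at 72.4, 78.8 and 63.2 CPM in WT and 52.9, 43.9 and 47.7 CPM in KO at ZT4. At ZT16 it was at 117, 118 and 138 CPM in WT and 109, 78.8 and 72.1 CPM in KO. All KO libraries were below all WT libraries of the same time, KO ZT16 replicate 2 included. The group means were 71.5 ± 7.83 and 48.1 ± 4.53 CPM at ZT4 and 124 ± 12.1 and 86.5 ± 19.4 CPM at ZT16 (SD, n = 3 each).

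Averaged over both times Ndufaf4 fell by 0.55 on the log2 scale in KO (SE 0.10, adjusted p = 0.0053), 0.685 of the WT level. The call held in all 19 alternatives run, with values from -0.65 to -0.42 and adjusted p up to 0.0202. At the single times it had -0.57 ± 0.15 (adjusted p = 0.0583) and -0.52 ± 0.15 (adjusted p = 0.0747), which did not pass in the main edgeR fit. It was called in 7 of 14 alternatives at ZT4 and in 6 of 13 at ZT16. No other annotated gene matched its transcript or overlapped its exons. Ndufaf3, a partner of NDUFAF4 in the same step, was at 23.8, 22.3 and 19.7 CPM in WT and 18.6, 17.3 and 18.5 CPM in KO at ZT4, a change of -0.27 ± 0.17 (adjusted p = 0.41). The WT and KO libraries of Ndufaf3 did not overlap at ZT4.

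**Figure D3:**
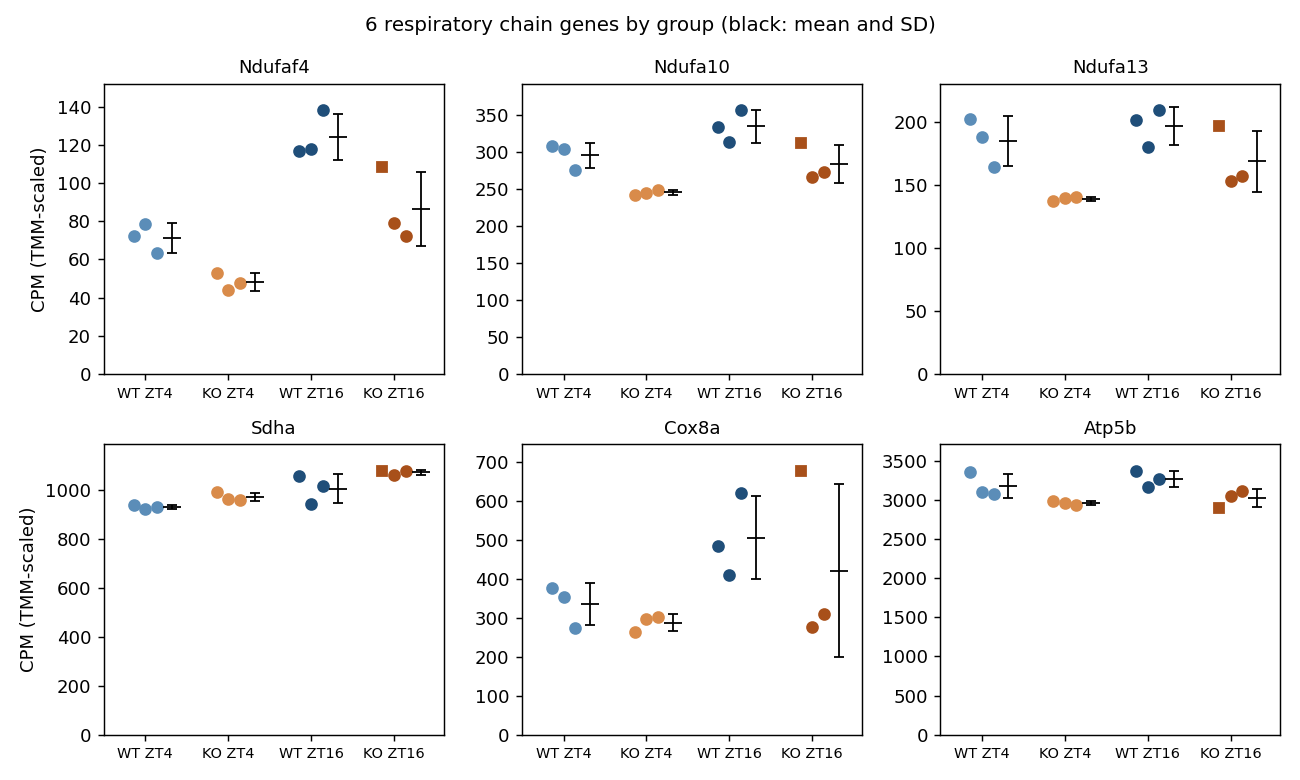
CPM (y axis, from 0) of 6 members in each library by group, with black bars for mean and SD of 3 libraries; the square is KO ZT16 replicate 2. Ndufaf4, Ndufa10 and Ndufa13 are lower in KO than in WT at ZT4 in every library, and Cox8a shows the square at 678 CPM above 278 and 310 CPM in the other KO ZT16 libraries.

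The time of day was compared within each genotype. In WT kidneys 83 of 88 members were higher at ZT16 than at ZT4 in fold change, with a median log2 of 0.44 against -0.01 for all genes. With all libraries edgeR called 1 member, Ndufaf4, while 2.87% of all genes were called higher. Voom with sample weights called 62 members higher and 0 lower, while it called 25.3% of all genes in either direction. Without KO ZT16 replicate 2, which belongs to neither WT group but enters the shared estimate of the spread, 70 members were called higher and 0 lower (17.5% of all genes were called higher and 15.9% lower), with a median of 0.45. The library values did not overlap, with ZT16 above ZT4, for 69 members, 78.4%, against 21.3% of all genes.

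Ndufaf4 rose in WT by 0.80 ± 0.15 (adjusted p = 0.0106) and in KO by 0.85 ± 0.15 (adjusted p = 0.0103). By complex the WT medians were 0.46 in complex I, 0.15 in complex II, 0.46 in complex III, 0.49 in complex IV, 0.39 in complex V and 0.36 among assembly factors. Ndufb8, an accessory subunit of complex I, was at 97.7, 104 and 95.2 CPM at ZT4 and 143, 136 and 162 CPM at ZT16 in WT, with 0.57 ± 0.19 (adjusted p = 0.0794) in the fit of all libraries and 0.58 ± 0.08 (adjusted p = 0.000253) without KO ZT16 replicate 2, so that its fold change stayed and its standard error fell. Its libraries of the 2 times did not overlap. Ndufa4l2 had -0.23, and the next lowest members were Sdhb (-0.02), Ndufv1 (-0.02), Ndufv3 (-0.02), Ndufa8 (-0.06) and Atp5b (0.04).

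In KO kidneys the median of the same comparison depended on replicate 2, while the calls moved from 3 to 2 members. With all libraries the median was 0.50 and edgeR called 3 members higher (5.27% of all genes): Ndufaf4, Ndufaf3 and Cox6b2. DESeq2 called 44 higher (14.2% of all genes). Without replicate 2 the median was 0.14 and 2 were called, Ndufaf4 and Ndufaf3 (3.85% of all genes were called higher), and when replicate 4 or 6 was left out in its place 44 and 48 were called higher (10.9% and 13.4% of all genes). KO ZT16 libraries were all above KO ZT4 libraries for 52 members, 59.1%, against 21.1% of all genes, and without replicate 2 for 55 members, 62.5%, against 26.8%. Ndufaf3 was at 18.6, 17.3 and 18.5 CPM at ZT4 and 39.4, 23.3 and 24.2 CPM at ZT16 in KO. Its ZT16 values were all above its ZT4 values, with 0.67 ± 0.17 (adjusted p = 0.0353), and without replicate 2 0.38 ± 0.10 (adjusted p = 0.0365).

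The difference of the time effect between genotypes was itself tested. With all libraries edgeR called 0 members for this interaction (0.0186% of all genes), DESeq2 called 0, and the median was 0.07. At an unadjusted p under 0.05 edgeR had 0 members, beside 540 of all 16150 genes. Without replicate 2 the median was -0.27, 81 of 88 values were below 0 and 0 were called (0.0489% of all genes), with a lowest adjusted p of 0.245. An unadjusted p under 0.05 was then reached by 31 members, beside 1660 of all 16360 genes. A smaller time effect in KO was thus not shown by the test. These comparisons share libraries: KO against WT at ZT16 and the time effect in WT both use the WT ZT16 group, and KO against WT at ZT4 shares its groups with both time effects.

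**Figure D4:**
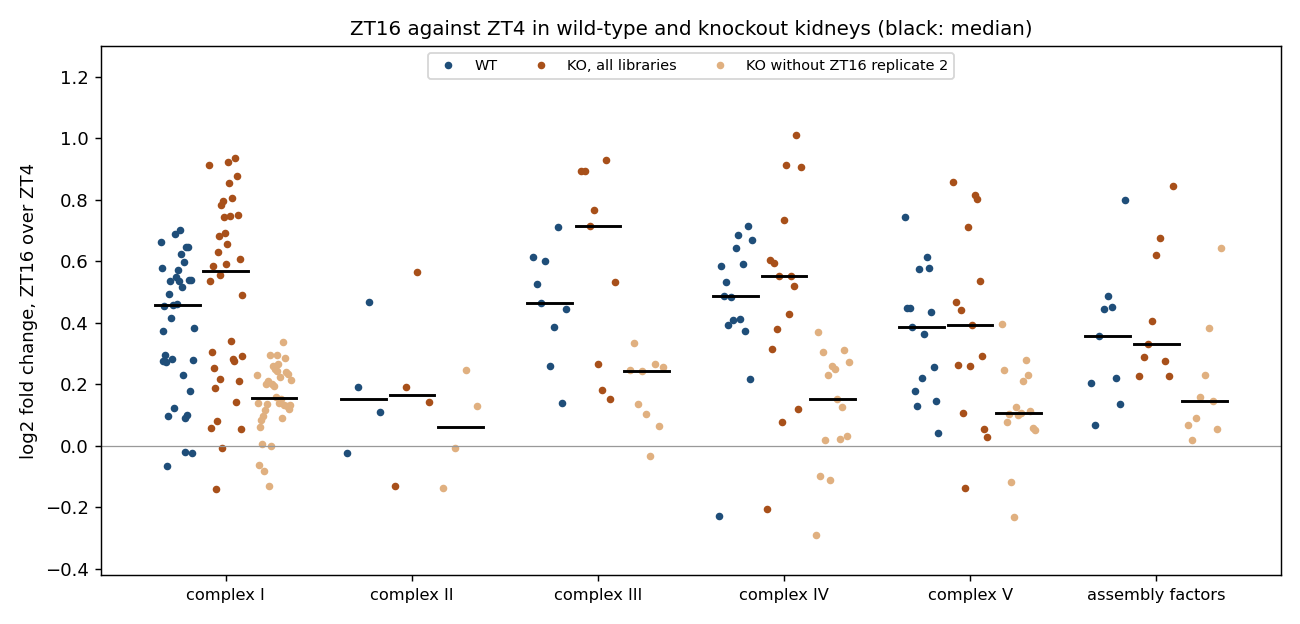
Log2 fold change of ZT16 over ZT4 for each member by complex, in WT, in KO with all libraries, and in KO without ZT16 replicate 2, with medians in black. WT medians lie between 0.15 and 0.49, and the KO medians fall from 0.17 to 0.72 with all libraries to 0.06 to 0.24 without replicate 2.

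Length and base composition were examined because members are short: their median exonic length was 1737 bases against 4016 for all tested genes. At ZT16 without replicate 2, the 19 members under 1000 bases had a median KO to WT change of -0.61, and all genes under 1000 bases had -0.31. The 21 members over 3000 bases had -0.41, and all genes over 3000 bases had 0.06. With all libraries the ZT16 medians were -0.13 for the short and -0.12 for the long members. For all genes of these lengths they were then -0.04 and 0.04. Short genes in general were thus lower in KO, and members were lower than all genes in either length class. In WT the same order held for time: members under 1000 bases had 0.54 and all such genes 0.30, and members over 3000 bases 0.38 and all such genes -0.08.

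A fit with offsets for length and GC content, without replicate 2 and chosen after seeing the data, called 39 members lower and 2 higher in KO at ZT16 (11.3% and 10.7% of all genes), with a median of -0.22. With all libraries the offsets left 1 lower and 0 higher at ZT16 (2.97% of all genes were called lower and 3.5% higher), and a median of -0.06. At ZT4 the offsets with all libraries gave a median of -0.07, with 62 of 88 values below 0 and 2 members called lower (3.04% of all genes). Averaged over both times they gave -0.07, with 63 below 0, 4 members called lower and 2 higher (7.5% and 8.23% of all genes). In WT the median time effect fell from 0.44 to 0.22 with offsets. Ndufaf4 changed by -0.45 ± 0.07 (adjusted p = 0.000458) at ZT16 with offsets and without replicate 2, Uqcrh by -0.42 ± 0.08 (adjusted p = 0.00224) and Cox8a by -0.65 ± 0.13 (adjusted p = 0.00383). For Cox7b (-0.19 ± 0.07, adjusted p = 0.0624) and Sdhd (-0.15 ± 0.06, adjusted p = 0.0878) the call was lost.

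**Figure D5:**
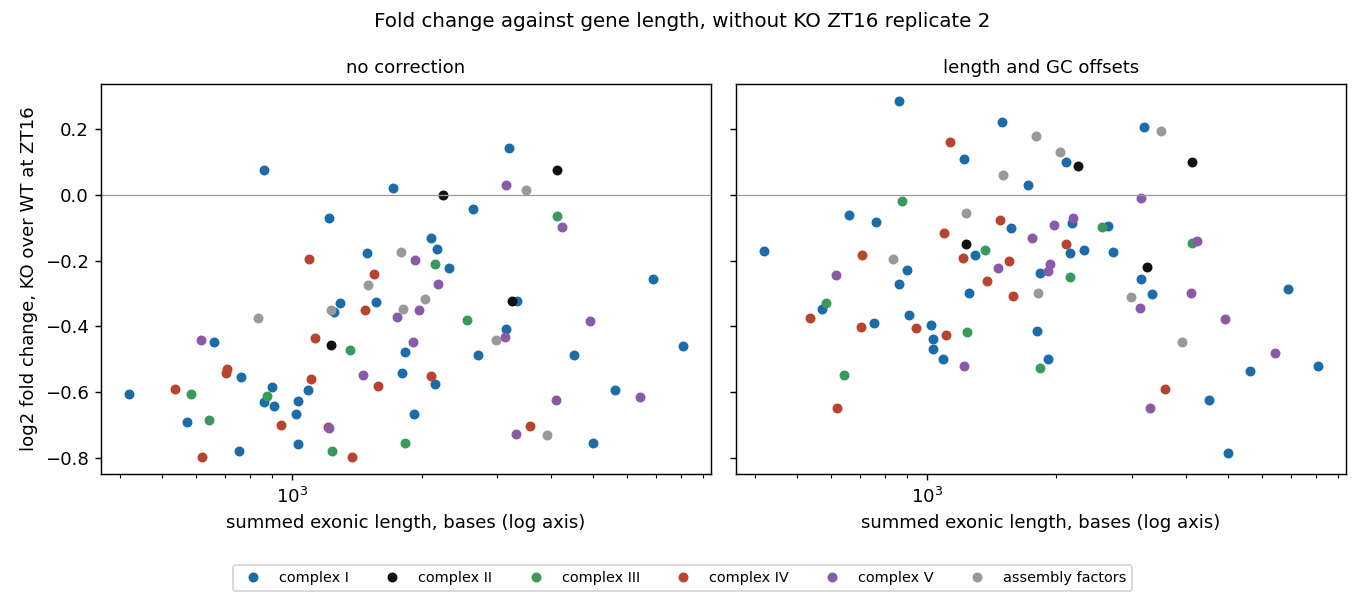
Log2 fold change of KO over WT at ZT16 without KO ZT16 replicate 2 (y axis) against summed exonic length in bases (log x axis) for the 88 members, coloured by complex, without correction at the left and with length and GC offsets at the right. The median is -0.45 at the left and -0.22 at the right.

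Sequence copies limit some of these values. Another annotated gene matched at least 75 bases of the transcript at 95% identity or more for 26 of the 88 members, and for 8 of them at least 50% of the transcript. Reads that aligned equally well to a gene and its copy were left out of the counts. How many reads of each member were left out, or were counted in a copy, was not measured. Atp5l, the g subunit of complex V, with copies in 10 other genes over 72.2% of its transcript, was at 1.53 to 5.16 CPM, and Cox7c and Ndufb4 at 8.61 to 19.0 and 9.69 to 34.7 CPM. Their levels are uncertain for that reason. Copies covered 52.62% of the Atp5f1 transcript and 23.98% of that of Cox7b. At least 10% of the exonic bases overlapped another gene on the same strand in 2 members and on the opposite strand in 10. Among them were Ndufb9 (19.5%, same strand), and Uqcrc2 (19.75%) and Ndufb5 (12.33%) on the opposite strand. Another 11 rows with a matching symbol are pseudogenes, 6 of them with a mean of at least 1 CPM, and were not members.

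Other mitochondrial genes were set beside the members. None of 16 regulators, among them Ppargc1a, Nrf1, Gabpa, Esrra and Tfam, was called in any of the 6 comparisons with edgeR and all libraries. By comparison, 0 to 6 of them had an unadjusted p under 0.05, beside 540 to 5862 of all 16150 genes. Ppargc1a, the coactivator PGC-1α, had a KO to WT change of 0.08 ± 0.06 averaged over both times (adjusted p = 0.428), Nrf1 -0.03 ± 0.06 (adjusted p = 0.821) and Tfam, the mitochondrial transcription and packaging factor, 0.08 ± 0.08 (adjusted p = 0.505). Without replicate 2 the same comparison called 4 regulators higher and 2 lower, 37.5% of the list, where 42.4% of all genes were called, with Esrrb, an ERR receptor, at 0.30 ± 0.06 (adjusted p = 0.00194) and Tfb1m, a mitochondrial methyltransferase, at -0.27 ± 0.08 (adjusted p = 0.0179).

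Of 13 mitochondrially encoded mRNAs 11 were tested. Among these mt-Atp6, mt-Co2, mt-Co3 and mt-Nd3 had few counts, with means of 11.5, 8.04, 6.83 and 0.726 CPM, where mt-Nd5 had 19040 CPM. Over both times the median of the 11 was -0.56. With all libraries 1 was called lower, mt-Nd5 of complex I (-0.57 ± 0.16, adjusted p = 0.0401), where 5.31% of all genes were called lower. Without replicate 2 the median of the 11 was -0.77 and 10 were called lower, where 21.7% of all genes were called lower. Of 44 tested assembly factors outside the naming rule 0 were called in KO against WT averaged over both times with all libraries (edgeR). Of these 44, 6 had an unadjusted p under 0.05, beside 4598 of all 16150 genes. Without replicate 2, 21 were called lower and 5 higher, with a median of -0.16, where 21.7% of all genes were called lower and 20.6% higher. Of 19 genes of the tricarboxylic acid cycle, which feeds the chain with NADH and succinate, 0 were called with all libraries (edgeR). Of these 19, 5 had an unadjusted p under 0.05, beside the same 4598 genes. Without replicate 2, 10 were called lower and 2 higher, with a median of -0.14, beside the same shares of all genes.

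Among 13 genes of coenzyme Q, the carrier between complexes I or II and III, Coq10b and Coq8a were called in each genotype comparison with all libraries. Of all genes 3.29% were called at ZT4, 4.03% at ZT16 and 11.4% over both times. Coq10b, which encodes a coenzyme Q binding protein, fell by 0.76 (SE 0.16, adjusted p = 0.0217) at ZT4 and by 0.96 (SE 0.15, adjusted p = 0.00338) at ZT16 in KO. Coq8a, an atypical kinase of the synthesis complex, rose by 0.60 ± 0.10 (adjusted p = 0.00766) and 0.64 ± 0.10 (adjusted p = 0.00376). The other 11 genes were not called in KO against WT with all libraries. Of 15 genes of the outer membrane and protein import, Vdac2 (-0.21 ± 0.06, adjusted p = 0.0315) and Phb (-0.20 ± 0.06, adjusted p = 0.0499) were called lower over both times. Of all genes 5.31% were called lower and 6.04% higher in that comparison.

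Cell type markers were read in the same libraries, as summed CPM. The 8 proximal tubule markers were at 40599 to 51473 CPM in WT ZT4, 33804 to 36165 in KO ZT4, 50976 to 80566 in WT ZT16 and 41887 to 90242 in KO ZT16, with 90242 in replicate 2. The androgen-regulated Kap carried most of this sum, with 23384 to 82192 CPM and the highest value in KO ZT16 replicate 2. The other 7 proximal tubule markers summed to 10050 to 11094 CPM in WT ZT4, 10420 to 10648 in KO ZT4, 9336 to 10394 in WT ZT16 and 8050 to 10436 in KO ZT16, with the lowest value in replicate 2. Without replicate 2, Kap changed by -0.77 ± 0.19 (adjusted p = 0.00927) and Slc5a2, a glucose transporter, by 0.30 ± 0.08 (adjusted p = 0.012) in KO at ZT16. With all libraries the water channel gene Aqp1 was called lower in KO averaged over both times (-0.31 ± 0.05, adjusted p = 0.00334). The 4 adipocyte markers, of which none was at 0 over all libraries, summed to 0.502 to 14.6 CPM with the highest value in KO ZT16 replicate 2, where Adipoq was at 8.48 and Ucp1 at 2.80 CPM. Markers of other cell types also moved with the genotype. The 4 macrophage markers summed to 79.4 to 92.4 CPM in KO and to 96.2 to 125 CPM in WT over both times, without overlap, and Csf1r was called lower in KO (-0.33 ± 0.06, adjusted p = 0.00246). Thick ascending limb markers were at 5535 to 6140 CPM in WT and 4605 to 4743 in KO at ZT4, and at 6483 to 7885 in WT and 5646 to 7328 in KO at ZT16, and Umod was called lower in KO (-0.46 ± 0.10, adjusted p = 0.00861). Endothelium markers were at 254 to 283 CPM in WT and 223 to 239 in KO at ZT4, and smooth muscle markers at 144 to 168 and 117 to 140 CPM. At ZT16 both lists overlapped between genotypes, with 253 to 273 CPM in WT and 214 to 258 in KO for endothelium, and 147 to 154 and 119 to 157 CPM for smooth muscle. Podocyte markers at ZT4 were at 188 to 226 CPM in WT and 229 to 243 in KO, and distal convoluted tubule markers at 482.4 to 645.8 and 646.0 to 695.8 CPM. At ZT16 these lists were at 146 to 179 and 144 to 197 CPM, and at 463 to 580.4 and 540.2 to 772 CPM. Principal cell markers ranged from 213 to 313 and intercalated cell markers from 184 to 236 CPM over all libraries, with overlap between genotypes at both times. The part of these cell types in the results was not tested. The 4 striated muscle markers summed to 0.521 to 1.53 CPM, and the 4 adrenal cortex markers to 0.416 to 0.872 CPM, with Cyp11b1 at 0 in every library.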

How the data were processed

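Whole-kidney RNA was sequenced in 12 libraries. Per the submitters' processing notes, reads were trimmed with cutadapt 1.2.1, aligned to GRCm38 with TopHat2 2.0.9 and counted per gene with HTSeq 0.5.4p3; the deposited values are these raw counts. For the annotation release and the strand setting of the counting, nothing is stated in the labels or notes. GENCODE M21 named 37607 of 38924 gene IDs. Rows that name no gene (counts outside features 3.50% to 5.96%) were left out of library sizes.

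Counts were tested with edgeR 4.0.16 (quasi-likelihood, filterByExpr, TMM scaling, 1 fit of 12 libraries, 8 residual degrees of freedom) in R 4.3.3. Benjamini-Hochberg adjustment ran over all 16150 tested genes, with calls at adjusted p under 0.05. CPM are TMM-scaled. Alternatives were DESeq2 1.42.0, limma 3.58.1 voom with sample weights, other filters and scaling, length and GC offsets, the replicate block, each library left out, and only the 6 libraries compared. DESeq2 and the offsets without KO ZT16 replicate 2 were added after seeing the data. On simulated counts for KO against WT at ZT4 (15904 genes) the edgeR test recovered 67.7% of 2-fold and 20.2% of 1.5-fold changes, with 1 false call. DESeq2 recovered 75.8% and 43.4%, with 26 false calls, and made 1 call in a comparison where no gene changed. The simulated counts held no library that stood apart as KO ZT16 replicate 2 did.

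The members and gene lists were chosen with earlier results of these data known. Named were the complex II genes and, in the other classes, the member with the most counts, the members with the lowest adjusted p in each comparison, up to 10 called members, and tissue isoforms, with and without KO ZT16 replicate 2. From the other lists, regulators and up to 3 called genes were named. Cox8a, Cox6a1, Cox6b1, Uqcr10, Uqcrc1, Ndufv1, Ndufv3, Ndufs7, Ndufa8, Ndufb10, Ndufb4, Ndufaf1, Ndufaf5, Atp5l and Cox7c were chosen after their values were seen. The main fit did not pair libraries by replicate number, and the labels name no pairing.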

Additional observations from a re-analysis of the deposited data

How the results depend on the processing

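Counts of called members depended above all on KO ZT16 replicate 2. With each library left out in turn they ran from 0 to 12 for KO against WT at ZT4, 0 to 69 at ZT16, 1 to 71 over both times, 0 to 70 for time in WT, 0 to 48 for time in KO and 0 to 0 for the interaction. The highest of the first 4 ranges came without KO ZT16 replicate 2, where 15.3%, 31.2%, 42.4% and 33.5% of all genes were called. With any other library of the compared groups left out these shares were 1.4% to 2.25%, 2.32% to 2.68%, 6.86% to 10.4% and 1.34% to 3.79%. In WT the count was 0 without WT ZT4 replicate 5 or WT ZT16 replicate 5 (1.34% and 1.59% of all genes). In KO it was 0 without KO ZT4 replicate 4 (1.11% of all genes). It was 44 without KO ZT16 replicate 4 and 48 without KO ZT16 replicate 6 (17.6% and 22.2% of all genes). In that order of comparisons, DESeq2 called 4, 1, 5, 3 and 44 members (6.46%, 6.24%, 15.8%, 13.3% and 22.7% of all genes), all lower in KO or higher at ZT16. Voom with sample weights called 35, 69, 74, 62 and 32 (29.4%, 34.2%, 48.6%, 25.3% and 31% of all genes), the last 31 higher and 1 lower, or 36.4% of members. The length and GC offsets called 2, 1, 6, 3 and 7 (6.08%, 6.47%, 15.7%, 10.7% and 15.2% of all genes), of which the last 3 were 2 higher and 4 lower, 2 higher and 1 lower, and 6 higher and 1 lower. Chosen after seeing the data, DESeq2 without KO ZT16 replicate 2 called 29, 70, 73, 72 and 3 (18.1%, 31%, 41.1%, 32.9% and 11.2% of all genes). The offsets without it, also chosen then, called 11, 41, 48, 52 and 3 (15.5%, 22%, 35.1%, 27.6% and 11.3% of all genes), of which 2, 2, 5, 50 and 2 were higher. Without a filter 1 was called at ZT4 and 11 for time in KO (2.05% and 7.22% of all genes). With only the 6 libraries compared, 25 were called at ZT4, 56 for time in WT and 0 for time in KO (18.2%, 22.8% and 0.227% of all genes).

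The median of the members at ZT16 was -0.45 without KO ZT16 replicate 2 and -0.44 with DESeq2 without it. For time in KO it was 0.14 without that library, 0.16 with DESeq2 without it, 0.23 with offsets and 0.089 with offsets without it. For the interaction it was -0.27, -0.25 with DESeq2 and -0.17 with offsets, each without that library. The cause of these shifts beyond the library left out was not tested. With the replicate block 1 member was called for time in WT and 1 for time in KO (1.42% and 1.17% of all genes). Same-numbered libraries had correlations from -0.266 to 0.0542, and other pairs across the times from -0.186 to 0.224. With 3 libraries per group these values cannot decide whether libraries with a shared number belong together. Of 27 single-gene results, 6 lost their call in at least 1 alternative (30 instances) and 12 gained one (51 instances). No called value changed sign. Uqcrc2 at ZT16, not called with all libraries, ran from -0.38 to 0.04.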
